A study of Mus musculus with 2 samples.

Results

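The extracellular matrix genes described here are 79 mouse genes: 40 collagen chains, 11 laminin chains, 19 numbered integrin subunits and 9 genes of the brain matrix (Ncan, Bcan, Vcan, Acan, Tnc, Tnr, Sparc, Sparcl1 and Fn1). They were taken by symbol from the 32285 genes of the count matrices. Of 83 matching symbols, the 79 members had at least 20 unique molecular identifiers (UMIs, counts of single RNA molecules) over both libraries. Just outside that limit lay Col10a1 with 12 UMIs, and inside it Col24a1 and Itga11 had 26 each. Col28a1 (5 UMIs), Col6a4 (4) and Col6a6 (2) were the other collagens left out. Integrin subunits named by letters, such as Itgam and Itgav, are not members and were counted in a separate list.

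The cells came from hippocampi of 7-week-old mice, dissociated with papain and captured with the 10x Genomics 3′ kit, version 3. WT stands for C57BL6/J mice. 60TM mice have that background too and carry GFAP-hGFAP, a human GFAP transgene used to model Alexander disease, a disorder of astrocytes. Each genotype has 1 library pooled from 3 mice, with no map from cells to mice, so no difference between genotypes was tested. Intervals below are 95% exact intervals and cover counting error only.

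The extracellular matrix of the brain differs from that of most organs. Fibrillar collagen is scarce outside the meninges and vessel walls, and the space between neurons and glia holds hyaluronan bound by chondroitin sulfate proteoglycans of the lectican family (neurocan, brevican, versican and aggrecan), which tenascins cross-link. Basement membranes of type IV collagen and laminin wrap the vessels and underlie the glial endfeet, and integrins, which are pairs of an alpha and a beta subunit, let cells bind these proteins.

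The WT library held 6861 barcodes and 63532407 UMIs (median 7053 per barcode), and the 60TM library 8733 barcodes and 80684152 UMIs (median 7270). After filtering, 6086 and 7575 cells remained, and 20 barcodes occurred in both libraries. Clusters were named from marker genes of which none is a member, and the members were left out of the clustering. Of the resulting classes, 14 had at least 50 cells in each library. Unnamed clusters held 4.55% of WT and 6.18% of 60TM cells. Gfap stood at 394 CPM (UMIs of a gene scaled to a class total of 1e6 UMIs) in WT astrocytes and 1333 in 60TM astrocytes, a ratio of 3.38 (3.24 to 3.53); the counts do not separate mouse from human GFAP. The hippocampal granule cell gene Prox1 was present in immature neurons at 1201 CPM in WT and 1194 in 60TM. Transcripts of choroid plexus markers stood higher in the other classes of the 60TM library, for example at 31.2 and 470 CPM summed over 8 markers in astrocytes, beside 59 WT and 243 60TM choroid plexus cells.

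The type IV collagen genes Col4a1 and Col4a2 are printed by their start sites because they are the 1 pair of members on opposite strands whose promoter windows overlapped, and because their levels follow each other across classes, as given further on. The windows run from 250 bases before to 50 after each start site and come from RefSeq on GRCm38.p6, 5′ to 3′ on the gene's strand. Capitals mark matches on either strand to the CCAAT box (ATTGG on the other strand), to the GC box GGGCGG (its reverse is CCGCCC) and to the TATA box TATAAA (its reverse is TTTATA). Overlapping matches were merged in the capitals. Col4a2 is at chr8:11312555-11312854 on the plus strand and Col4a1 at chr8:11312777-11313076 on the minus strand, with 78 bases shared.

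Col4a2: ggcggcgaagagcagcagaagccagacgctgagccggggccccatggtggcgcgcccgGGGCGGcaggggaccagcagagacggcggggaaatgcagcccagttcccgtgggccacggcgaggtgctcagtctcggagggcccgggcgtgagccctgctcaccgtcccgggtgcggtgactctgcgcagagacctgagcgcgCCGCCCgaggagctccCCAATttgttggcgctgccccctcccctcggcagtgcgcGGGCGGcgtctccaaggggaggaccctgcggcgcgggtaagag
Col4a1: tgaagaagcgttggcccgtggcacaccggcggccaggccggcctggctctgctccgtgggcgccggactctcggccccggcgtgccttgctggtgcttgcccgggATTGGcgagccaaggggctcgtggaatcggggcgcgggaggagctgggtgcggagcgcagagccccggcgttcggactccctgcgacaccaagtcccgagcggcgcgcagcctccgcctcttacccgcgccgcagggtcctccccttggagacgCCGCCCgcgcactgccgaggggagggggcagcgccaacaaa

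Ncan, Bcan and Tnc are shown because they stood lower together in 60TM astrocytes and radial glia-like cells. Their windows lie at chr8:70120795-70121094, chr3:88000307-88000606 and chr4:64046966-64047265, all on the minus strand. A further Tnc start site in the table has an overlapping window that is not printed.

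Ncan: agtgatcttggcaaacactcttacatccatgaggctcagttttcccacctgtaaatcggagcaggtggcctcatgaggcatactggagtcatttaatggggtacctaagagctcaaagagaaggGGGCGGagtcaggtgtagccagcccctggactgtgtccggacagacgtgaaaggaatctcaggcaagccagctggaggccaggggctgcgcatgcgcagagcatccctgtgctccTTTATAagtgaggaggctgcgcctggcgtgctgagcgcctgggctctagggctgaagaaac
Bcan: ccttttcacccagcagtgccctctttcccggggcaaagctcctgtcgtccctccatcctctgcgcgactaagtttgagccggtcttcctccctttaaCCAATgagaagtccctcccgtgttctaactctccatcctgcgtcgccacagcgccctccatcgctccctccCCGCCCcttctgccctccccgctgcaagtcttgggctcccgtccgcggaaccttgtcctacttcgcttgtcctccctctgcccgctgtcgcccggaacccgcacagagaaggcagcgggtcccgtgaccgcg
Tnc: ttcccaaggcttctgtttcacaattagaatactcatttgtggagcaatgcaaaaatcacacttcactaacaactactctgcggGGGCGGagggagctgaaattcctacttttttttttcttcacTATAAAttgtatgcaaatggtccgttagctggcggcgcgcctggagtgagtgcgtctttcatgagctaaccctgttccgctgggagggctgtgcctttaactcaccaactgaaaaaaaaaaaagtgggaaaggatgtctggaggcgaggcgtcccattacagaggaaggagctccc

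GGGCGG or its reverse occurred in all 5 printed windows. It occurred in 57.8% of the 64 promoter windows that RefSeq gave for 57 of the members, and in 35.7% of all 32851 windows of that length. CCAAT occurred in 28.1% of the members' windows and 37.4% of all, and TATAAA in 10.9% and 13.6%. Within the printed set, TATAAA or its reverse lay in the Ncan and Tnc windows. These matches describe letters and no binding.

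The members were first placed in their source class, the class with the highest CPM among those with at least 50 cells in each library. For 62 of 79 members it was the same class in both libraries. At least 10 UMIs stood behind the value in both libraries for 53 members, and 48 of these had the same source class in both. Pericytes, the mural cells of capillaries, were the source class of 16 of those 48, oligodendrocyte precursor cells (OPCs) of 7, committed OPCs and microglia of 5 each, endothelial cells of 4 and neurons of 3. Pericytes also had the fewest UMIs of the 14 classes, 173170 in WT and 152929 in 60TM. No share over all genes stands beside these counts, so they are not read as particular to the members. Levels below are ranked among these 14 classes unless a smaller group is named. In smaller groups, 17 members with at least 10 UMIs in each library stood above their source class in both: 12 in fibroblast-like cells, 3 in ependymal cells (Col5a3, Col6a5 and Col8a2) and 2 in T or NK cells (Itgb2 and Itgb7). The heatmap of member levels shows these blocks side by side for the 2 libraries.

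**Figure D1:**
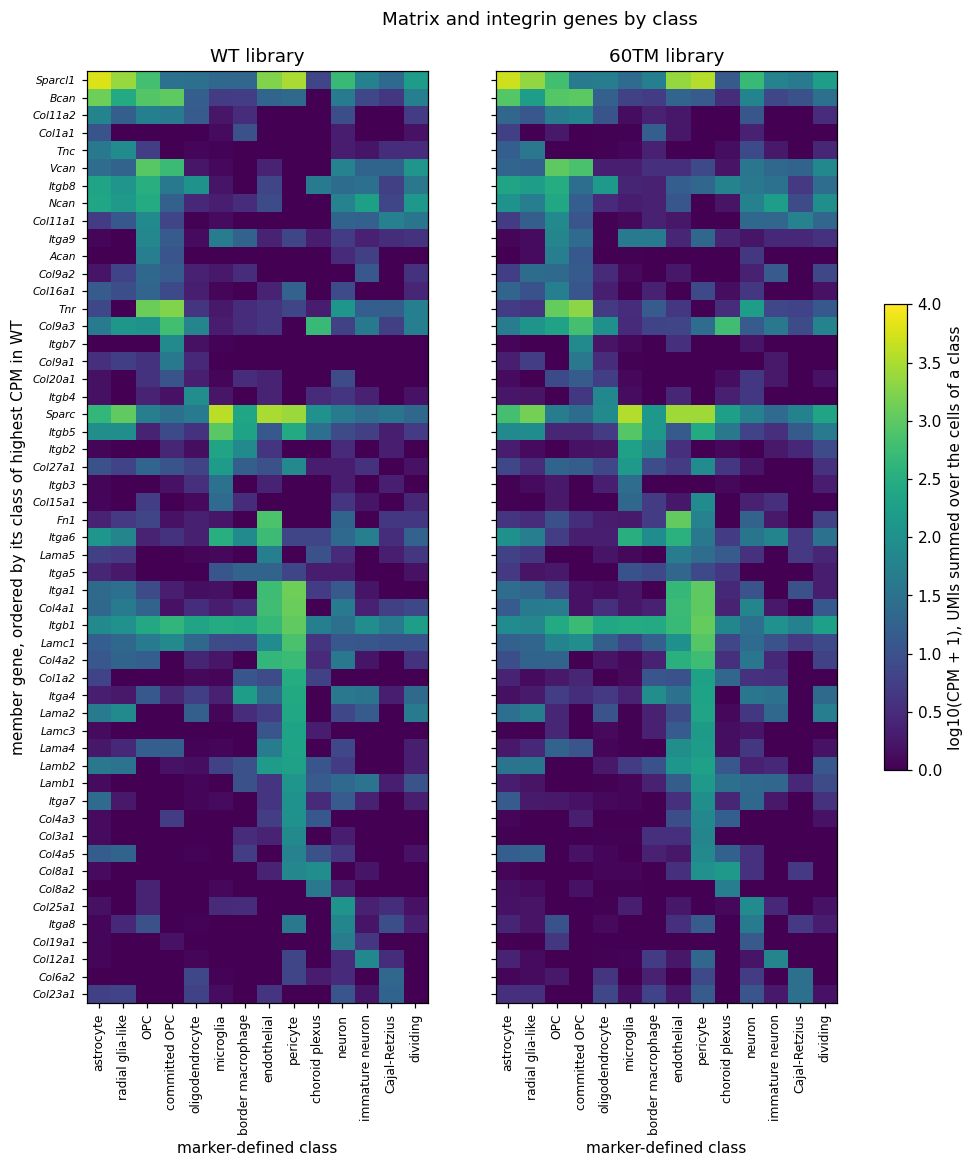
Levels of the 53 members with at least 10 UMIs in their source class in both libraries (rows) over 14 marker-defined classes (columns), as log10(CPM + 1), with WT at left and 60TM at right. Pericytes, microglia and the OPC classes each light up a block of rows, and 48 of 53 rows have their highest class in common between the libraries.

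Among the network-forming collagens of the basement membrane, Col4a1 reached 1201 CPM in WT pericytes and 1020 in 60TM pericytes, and 586 and 524 in endothelial cells. Its partner chain Col4a2 stood at 526 and 569 CPM in pericytes and at 448 and 348 in endothelial cells. Of the other classes, neurons and radial glia-like cells came next in WT, with 42.7 and 42.6 CPM of Col4a1. Microglia held 1.05 and 0.807 CPM of Col4a1. Col4a3 and Col4a5, chains of other type IV collagen trimers, were highest of the 14 classes in pericytes, Col4a3 at 104 and 71.9 CPM and Col4a5 at 57.8 and 78.5, from 10 to 18 UMIs each. Fibroblast-like cells held more Col4a5, at 114 and 176 CPM.

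**Figure D2:**
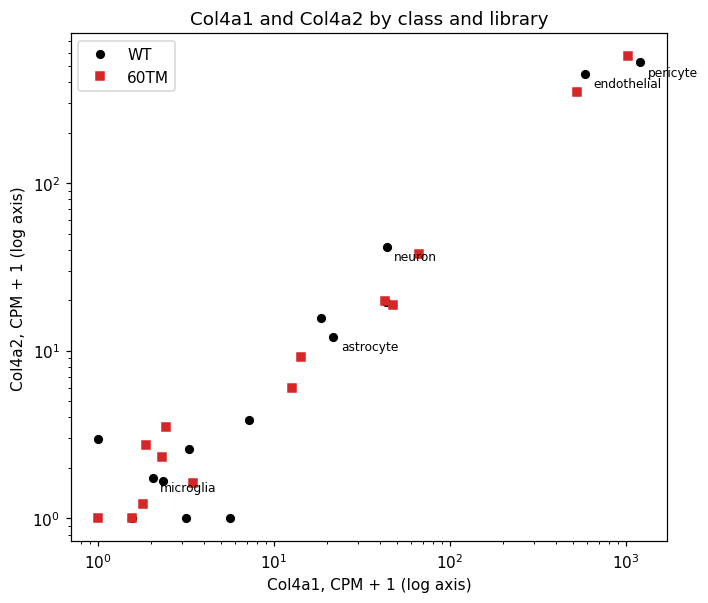
Col4a1 against Col4a2 in 14 classes, in CPM + 1 on log axes, with a circle per class for WT and a square for 60TM. Pericytes and endothelial cells lie at the upper right in both libraries, the other classes lie at 65.4 CPM of Col4a1 or less, and microglia lie near the origin.

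Collagens of type I and III were highest in a group of cells too few for the comparison between genotypes. Fibroblast-like cells numbered 13 in WT and 14 in 60TM, and 12 members with at least 10 UMIs there in both libraries were higher in them than in any of the 14 classes. Col1a2, a chain of type I collagen, stood at 2581 and 1635 CPM in them and at 300.3 and 196 in pericytes. Col1a1, its partner chain, stood at 1179 and 994 CPM in fibroblast-like cells, and the 14 classes held at most 14.5 CPM of it. Col3a1, the chain of type III collagen, stood at 397 and 228 CPM.

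Several collagens had sources outside the vessel wall. Col27a1, a fibrillar-type chain, was a microglial transcript at 157 and 141 CPM, and microglia held 86.5% of its UMIs over all kept cells in WT and 87.5% in 60TM. Col9a3, a type IX chain first known from cartilage, was highest in committed OPCs at 623 and 654 CPM, followed by choroid plexus cells at 490 and 584. Col9a1 of the same trimer also peaked in committed OPCs, at 40.9 and 39.7 CPM. The transmembrane collagen Col25a1 was neuronal at 118 and 84.5 CPM, and Col12a1 was highest of the 14 classes in immature neurons, at 73.7 and 65.3, below fibroblast-like cells at 163 and 269. Col8a2, a short-chain collagen, was found in choroid plexus cells at 39.5 and 51.0 CPM. Col8a1, the other chain, stood there at 91.8 and 141. Ependymal cells, with 128 WT and 42 60TM cells, also held Col8a2, at 121 and 113 CPM.

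Laminins, the cross-shaped trimers of basement membranes, were led by pericytes. The gamma chain Lamc1 stood at 722 and 896 CPM there, against 83.8 and 102 in endothelial cells. Lamc3 stood at 208 and 150.4 CPM in pericytes, Lama2 at 243 and 216 and Lama4 at 208 and 157. The beta chain Lamb2 differed less between pericytes (191 and 196 CPM) and endothelial cells (157 and 127). Lama5, an alpha chain of the endothelial basement membrane, was highest in endothelial cells at 51.4 and 48.0 CPM. In both libraries Lama2 also stood in astrocytes, at 43.8 and 28.1 CPM, and in radial glia-like cells.

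Among the integrins, Itgb1, the common beta subunit of most matrix receptors, was present in all 14 classes, with pericytes highest at 1057 and 1118 CPM. Itga1, a collagen-binding alpha subunit, was a mural and endothelial transcript at 1328 and 1033 CPM in pericytes and 570.1 and 459 in endothelial cells. Microglia held Itgb5 at 953 and 896 CPM, Itgb2, the leukocyte beta subunit, at 212 and 191, and Itgb3 at 30.7 and 25.9. Microglia held 95.3% of the Itgb2 UMIs of all kept WT cells and 93.9% in 60TM, while its level was higher in the 8 and 27 T or NK cells, at 331 and 245 CPM. Itgb4, the beta subunit of the laminin receptor, was found in oligodendrocytes at 90.9 and 72.7 CPM, with 93.5% and 91.7% of its UMIs there. Itgb7 was found in committed OPCs at 81.2 and 82.2 CPM, and the next of the 14 classes held at most 2.48. T or NK cells held more, at 284 and 265 CPM from 12 and 39 UMIs. Itgb8, which with the alpha-v subunit binds latent TGF-beta, was highest in OPCs at 318 and 302 CPM, followed by astrocytes at 213 and 216.

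The brain matrix genes divided between glial classes. Versican (Vcan) peaked in OPCs at 904 and 1027 CPM, and tenascin-R (Tnr) in committed OPCs at 1743 and 2005. Aggrecan (Acan), best known from nets around neurons, was low and highest in OPCs, at 49.6 and 50.9 CPM from 34 and 60 UMIs. Neurocan (Ncan) was highest in OPCs at 287 and 237 CPM, with astrocytes at 236 and 111 and immature neurons at 187 and 173. Brevican (Bcan) was highest in astrocytes in WT (1311 CPM, against 1007 in committed OPCs), while in 60TM committed OPCs stood highest at 975 and astrocytes at 871. Tenascin-C (Tnc) was highest in radial glia-like cells, at 83.4 and 38.2 CPM. Fibronectin (Fn1) was highest in endothelial cells, at 746 and 1112 CPM, with 41.0% and 37.6% of its UMIs over all kept cells. Unnamed cells with both pericyte and endothelial markers stood at a like level, with 465 and 2037 UMIs. Sparcl1 (hevin), which astrocytes secrete at synapses, stood at 6214 and 4891 CPM in astrocytes and at 3124 and 3525 in pericytes. Its relative Sparc, a collagen-binding matricellular protein, was highest in microglia at 3860 and 3450 CPM, followed by endothelial cells at 3116 and 2731 and pericytes at 2535 and 2668.

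Genes of one class were also seen in a low share of cells of another, and the part of free RNA in this was not tested. After each cell was thinned to 2000 UMIs, Ncan was seen in 33.7% of WT astrocytes and in 0.29% of WT microglia, and Bcan in 88.7% and 0.774%. Without thinning the Ncan shares were 64.4% and 0.766%, at median depths of 5994 UMIs in astrocytes and 5671 in microglia.

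60TM was then set against WT within each class, for members with at least 100 UMIs there over both libraries. A ratio of at least 1.5 counts as higher in 60TM and its inverse or less as lower. Members past that ratio numbered 39 over the classes, in 10 of the 14. Astrocytes held 11 of them, more than any other class, with 2 members higher and 9 lower of 26. Over all 10635 genes with that many UMIs in astrocytes, 7.69% were higher and 6.93% lower. The members' median log2 ratio was -0.35 and that of all genes -0.06. The members' individual ratios are in the plot of ratios with counting intervals.

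**Figure D3:**
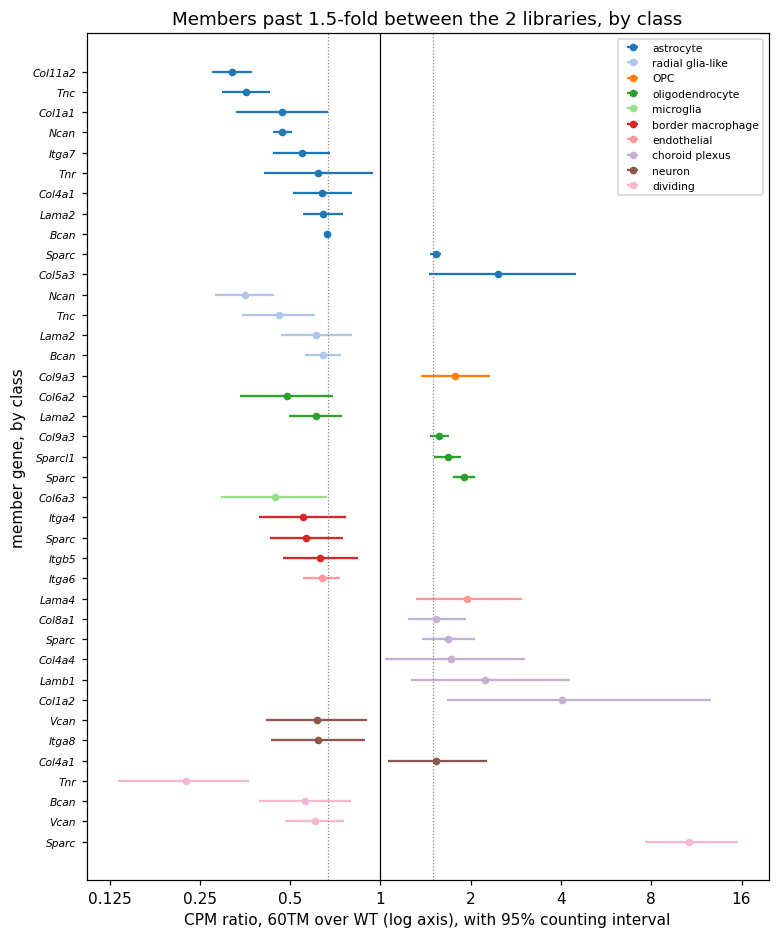
CPM ratio of 60TM over WT on a log axis for each of the 39 members past 1.5-fold, grouped by class (colors), with bars for the 95% counting interval and dotted lines at 1.5-fold. In astrocytes and radial glia-like cells Ncan, Tnc, Lama2 and Bcan lie left of 1, and Sparc in dividing cells lies farthest right at 10.7.

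Among the lecticans and tenascins of astrocytes, Ncan stood at 236 CPM in WT (1421 UMIs) and 111 in 60TM (1776 UMIs), a ratio of 0.471 (0.439 to 0.505). Tnc stood at 41.0 CPM in WT and 14.6 in 60TM, a ratio of 0.356 (0.296 to 0.427). Bcan stood at 1311 and 871 CPM, a ratio of 0.664 (0.646 to 0.683), just past the limit. Tnr was low in this class, at 6.47 and 4.00 CPM, with a ratio of 0.618 (0.409 to 0.946). Vcan did not pass the limit, with 26.4 and 18.9 CPM and a ratio of 0.716. The 10 astrocyte markers used for naming stood at 27171 CPM in WT and 19788 in 60TM when summed, so Ncan and Tnc differed by more than these markers and Bcan by about as much; the part of this shift in the ratios was not tested.

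Of the collagens in astrocytes, Col11a2, Col4a1 and Col1a1 were lower and Col5a3 higher; Itga7 was the 1 integrin past the limit. Col11a2, a chain of the minor fibrillar type XI collagen, stood at 62.6 CPM in WT and 20.0 in 60TM, a ratio of 0.320 (0.275 to 0.372). Col4a1 stood at 20.7 and 13.3 CPM (0.639, 0.51 to 0.804), and Col1a1 at 10.1 and 4.75. Pericyte markers summed to 115 and 73.6 CPM in the same astrocytes. At their ratio to Col4a1 in pericytes, these would carry 3.26 CPM of Col4a1 in WT and 2.09 in 60TM. Col1a1 was below the 15.4 and 9.24 CPM to which fibroblast markers in these astrocytes scaled, so no difference is read from it. These markers summed to 247 and 347 CPM, higher in 60TM where Col1a1 was lower, and the source of its UMIs was not tested. Lama2, an alpha chain of the laminin at glial endfeet, stood at 43.8 and 28.1 CPM with a ratio of 0.642 (0.551 to 0.751), but within the cluster led by Slc6a11, described below, its ratio was 1.14 (0.869 to 1.48). Itga7, a laminin-binding integrin subunit, stood at 23.7 and 12.9 CPM with a ratio of 0.546 (0.439 to 0.68). Itgb8, at 213 and 216 CPM, and Itgb1, at 78.8 and 87.6, had ratios of 1.01 and 1.11.

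Higher in 60TM astrocytes were Sparc and Col5a3. Sparc stood at 437 CPM in WT and 666 in 60TM, a ratio of 1.53 (1.46 to 1.59). The microglial markers present in astrocytes scaled to 14.9 and 18.3 CPM of Sparc. Other classes hold Sparc too, and the part of free RNA in these levels was not tested. Col5a3, a type V chain, rested on 16 and 105 UMIs, at 2.65 and 6.57 CPM, a ratio of 2.47 (1.45 to 4.49). Col16a1 stood just inside the limit, at 12.9 and 19.4 CPM. Sparcl1, the most abundant member in astrocytes, stood at 6214 and 4891 CPM, a ratio of 0.787 (0.777 to 0.797).

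Astrocytes fell into 4 clusters, named here by their leading gene, and their make-up differed between libraries. The cluster led by Lcn2, a gene of reactive astrocytes, held 1 WT and 557 60TM cells, the cluster led by Hsd11b1 496 and 924, the cluster led by Slc6a11 405 and 316, and a shallow cluster led by Aldh1a1 54 and 220. Within the clusters led by Hsd11b1 and Slc6a11, Ncan had ratios of 0.558 (0.504 to 0.618) and 0.623 (0.55 to 0.706). Tnc, with 60 and 8 UMIs in 60TM, had ratios of 0.163 (0.12 to 0.22) and 0.126 (0.0523 to 0.262). Col11a2 had ratios of 0.440 (0.358 to 0.54) and 0.431 (0.321 to 0.574). The 3 members were lower in the 60TM library within both clusters, by more than counting error. The ratios of Ncan and Col11a2 were closer to 1 than over all astrocytes, and those of Tnc farther from it.

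Bcan behaved otherwise. Its ratio was 0.872 (0.839 to 0.906) and 0.866 (0.825 to 0.908) in those clusters, and the Lcn2-led cluster held 549 CPM of it, against 1036 and 1299 in the other 60TM astrocytes of those clusters. Sparcl1, at 3477 CPM in the Lcn2-led cluster, had ratios of 0.941 and 1.01 in the same clusters and 0.784 in the shallow Aldh1a1-led one. Col5a3 had ratios of 1.01 and 0.992 in the clusters led by Hsd11b1 and Slc6a11, and stood at 12.9 CPM in the Lcn2-led cluster. Tnc stood at 26.2 CPM in the Lcn2-led cluster, above the 8.42 and 3.48 of the other 60TM clusters. Sparc was higher in 60TM in both, at 1.31 (1.23 to 1.39) and 1.49 (1.38 to 1.61). Without the Lcn2-led cluster, 7 astrocyte members were lower and 0 higher of 23, where 7.16% of all genes passed the limit in either direction. Col5a3 then had a ratio of 0.959. Thinning each cell to 2000 UMIs left 4 lower and 0 higher of 16, where 11.2% of all genes passed the limit in either direction. Over the 10 alternatives run, Ncan, Tnc and Col11a2 stayed past the limit in all 10. Bcan did so in 5 (ratios of 0.654 to 0.819), Sparc in 6 (1.36 to 1.59), Tnr in 6 (0.0943 to 0.796) and Lama2 in 7 (0.587 to 0.875). Tnr reached 0.0943 when free RNA was subtracted.

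**Figure D4:**
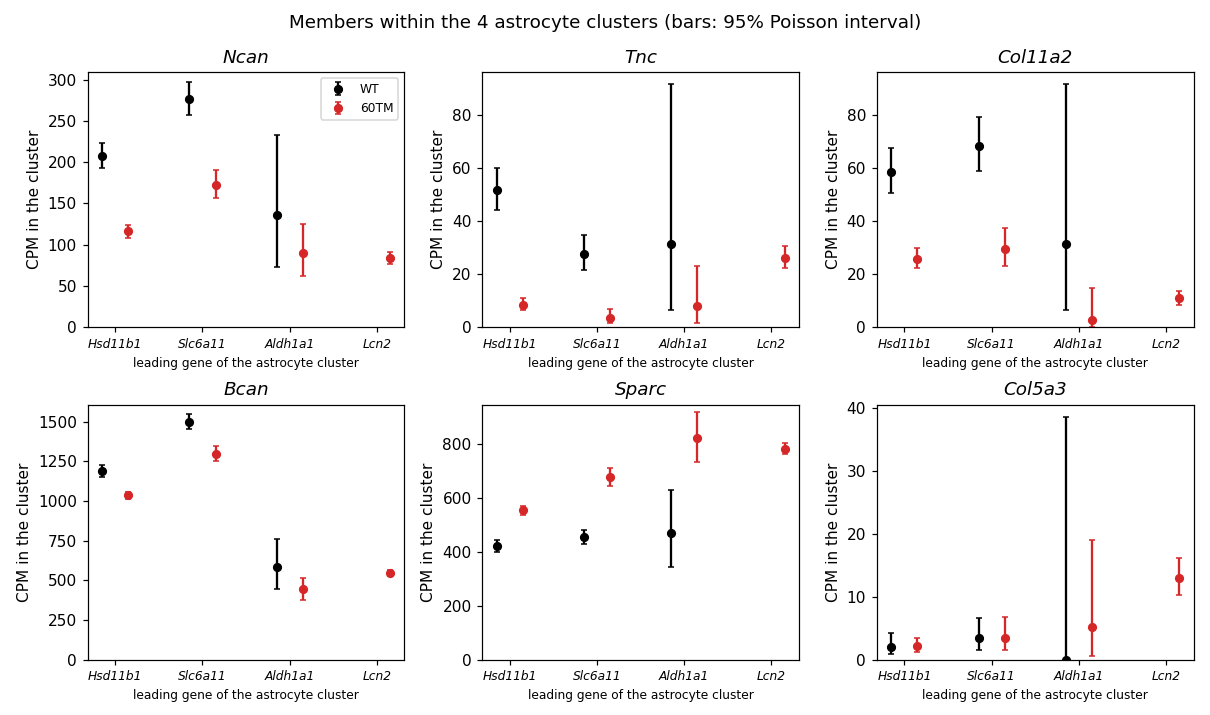
CPM of 6 members in the 4 astrocyte clusters, named on the x axis by their leading gene, with WT in black, 60TM in red and bars for the 95% Poisson interval (1 WT cell in the Lcn2-led cluster is not drawn). Ncan, Tnc and Col11a2 lie lower in 60TM within the clusters led by Hsd11b1 and Slc6a11, Sparc lies higher there, and Col5a3 stands out in the Lcn2-led cluster at 12.9 CPM.

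Radial glia-like cells, the class with markers of hippocampal stem cells, also had Ncan, Tnc, Bcan and Lama2 lower in 60TM. Of 13 members with at least 100 UMIs, none was higher and 4 were lower, where 3.99% and 4.12% of all genes were. Ncan stood at 141 CPM in WT and 49.7 in 60TM (0.352, 0.281 to 0.442), and Tnc at 83.4 and 38.2 (0.457, 0.347 to 0.605). Lama2 stood at 77.2 and 47.2 CPM, and Bcan at 273 and 176. Sparc stood at 1062 and 1455 CPM, a ratio of 1.37 (1.29 to 1.46), short of the limit. These cells came from the same pair of libraries as the astrocytes, so the values are no independent repeat.

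In the oligodendrocyte lineage the lecticans did not pass the limit. In OPCs Ncan had a ratio of 0.824, Tnr 0.900, Bcan 1.04 and Vcan 1.14, and in committed OPCs Bcan had 0.968 and Tnr 1.15. Col9a3 was the 1 member of 11 that was higher in OPCs, where 1.73% of all genes were, at 114 and 201 CPM (1.77, 1.36 to 2.31); none was lower, where 1.82% were. None of 11 members passed the limit in committed OPCs, where 2.37% of all genes were higher and 1.31% lower, and Col9a3 had a ratio of 1.05 there. Choroid plexus cells also hold Col9a3, and the choroid plexus markers in OPCs (30.6 and 379 CPM summed) scaled to 0.0575 and 0.819 CPM of it.

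Oligodendrocytes, the myelinating cells, had 3 members higher and 2 lower of 16, where 2.76% and 1.96% of all genes were. Sparc stood at 43.3 CPM in WT and 82.3 in 60TM, a ratio of 1.90 (1.75 to 2.07). Microglial markers in oligodendrocytes summed to 95.1 and 125 CPM and scaled to 9.70 and 12.8 CPM of Sparc. Other classes hold Sparc too, and the part of free RNA in its ratio was not tested. Sparcl1 stood at 29.2 and 48.8 CPM, a ratio of 1.67 (1.5 to 1.86), but the astrocyte markers in oligodendrocytes scaled to 39.3 and 56.9 CPM of it. Both Sparcl1 levels were below these scaled values, so no difference is read from them. The part of astrocyte RNA in them was not tested. Col9a3 stood at 64.6 and 102 CPM (1.57, 1.46 to 1.69). Its ratio was 1.15 to 1.43 in the 4 larger oligodendrocyte clusters, and the cluster led by Ctps, with 109 WT and 71 60TM cells, held 247 and 347 CPM of it. Col6a2, a beaded-filament chain, was lower at 6.18 and 3.03 CPM (0.490, 0.34 to 0.693), but in the cluster led by Mal its ratio was 2.19 (1.07 to 4.62), from 14 and 22 UMIs. Lama2 stood at 15.5 and 9.43 CPM, and its ratio was 1.05 after thinning. The laminin receptor subunit Itgb4 had a ratio of 0.80 (0.742 to 0.862).

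Microglia were the largest class, with 2088 and 2455 cells. Of 15 members none was higher and 1 was lower, where 2.51% and 2.17% of all genes were. Sparc had a ratio of 0.894 (0.884 to 0.904), Itgb5 0.940 (0.919 to 0.962), Col27a1 0.896, Itgb2 0.899 and Itgb1 1.01. Col6a3 was the member past the limit, at 5.10 and 2.26 CPM from 68 and 42 UMIs (0.443, 0.294 to 0.661).

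Border macrophages, which line vessels and meninges, had 3 of 5 members lower and none higher, where 3.96% and 5.87% of all genes were. Itga4, a subunit of the receptor for VCAM1 and fibronectin, stood at 170 and 93.7 CPM (0.551, 0.394 to 0.77). Sparc stood at 235 and 133 CPM (0.566, 0.427 to 0.749), and Itgb5 at 211 and 133. Sparc and Itgb5 are also microglial transcripts. Microglial markers summed to 14435 and 13149 CPM in this class and scaled to 1473 and 1341 CPM of Sparc and 364 and 348 of Itgb5, above the levels measured, so no difference is read from either gene. For Itga4 they scaled to 0.515 and 0.544 CPM. Values for Sparc and Itgb5 rested on 97 to 108 UMIs a library, and Sparc had a ratio of 1.21 where each cell took the class of its highest marker score. Itgb5 had 1.02 after thinning.

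At the vessels, 11 members in endothelial cells gave 1 higher and 1 lower, where 4.19% and 3.46% of all genes were. Lama4, an alpha chain of vascular laminin, stood at 48.5 CPM in WT and 94.4 in 60TM, with 33 and 114 UMIs behind a ratio of 1.95 (1.31 to 2.96). Itga6, a laminin-binding subunit, stood at 555 and 353 CPM (0.636, 0.553 to 0.733). Fn1 had a ratio of 1.49 (1.35 to 1.65), just short of the limit. Col4a1 and Col4a2 had ratios of 0.894 (0.787 to 1.01) and 0.777 (0.669 to 0.904). Pericyte markers in endothelial cells summed to 2048 and 1337 CPM and scaled to 10.1 and 5.83 CPM of Lama4. After thinning Lama4 had a ratio of 0.549. None of 7 members passed the limit in the 57 and 52 pericytes, where 6.04% of all genes were higher and 3.82% lower, and Col4a1 had a ratio of 0.849 (0.686 to 1.05) and Lamc1 1.24 (0.967 to 1.59). A further 34 WT and 114 60TM cells carried both pericyte and endothelial markers and stayed out of both classes. In them Itga6 stood at 453 and 275 CPM, a ratio of 0.607 (0.522 to 0.706), and Lama4 at 94 and 116, a ratio of 1.24 (0.915 to 1.7).

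In choroid plexus cells, the epithelium that makes cerebrospinal fluid, 5 of 11 members were higher and none lower, where 9.94% and 3.24% of all genes were. All 11 ratios were above 1, with a median log2 ratio of 0.54 against 0.01 for all genes. Col8a1 stood at 91.8 and 141 CPM (1.53, 1.23 to 1.93), and Sparc at 106 and 177 (1.68, 1.37 to 2.07). Col4a4 stood at 16.8 and 28.8 CPM (1.72, 1.04 to 3.03), and the beta laminin Lamb1 at 12.8 and 28.6 (2.23, 1.26 to 4.29). Col1a2, with 5 and 96 UMIs, stood at 4.94 and 19.9 CPM (4.03, 1.67 to 12.7), below the 205 and 78.3 that fibroblast markers in this class scaled to. Those markers summed to 1505 and 1787 CPM in choroid plexus cells. The scaled values lay far above the measured ones and do not estimate the fibroblast part. The source of the Col1a2 UMIs was not tested. This class had 59 WT cells, and oligodendrocyte markers in it summed to 502 CPM in WT and 59.5 in 60TM, a difference whose part in these ratios was not tested.

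The neuronal classes gave few values. In neurons 1 of 9 members was higher and 2 lower, where 4.32% and 5.59% of all genes were: Col4a1 at 42.7 and 65.4 CPM (1.53, 1.06 to 2.26), Vcan at 58.9 and 36.1 (0.613, 0.414 to 0.905) and Itga8 at 68.1 and 42.2 (0.620, 0.432 to 0.89). Col4a2, the partner chain of Col4a1, stood at 40.65 CPM in WT and 36.8 in 60TM neurons. Markers of Dlx neuroblasts in this class summed to 1459 CPM in WT and 488 in 60TM, and Dlx neuroblasts held 304 and 239 CPM of Vcan. Vcan had a ratio of 1.63 as a mean over cells, Col4a1 had 1.08 by the highest marker score and Itga8 had 0.94 after thinning. None of 6 members passed the limit in immature neurons, where 1.39% of all genes were higher and 1.72% lower. No member reached 100 UMIs in Cajal-Retzius cells, where 1.83% of all genes were higher and 1.83% lower.

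Dividing cells had 1 of 10 members higher and 3 lower, where 3.63% and 2.49% of all genes were. Sparc stood at 20.5 CPM in WT and 219 in 60TM, a ratio of 10.7 (7.61 to 15.5). Microglial markers in dividing cells summed to 81.9 CPM in WT and 1325 in 60TM and scaled to 8.35 and 135 CPM of Sparc. Tnr stood at 51.7 and 11.6 CPM, Bcan at 52.3 and 29.4 and Vcan at 121 and 73.1. OPC markers in these cells summed to 566 and 254 CPM, in the direction of these 3 members. They scaled to 65.7 and 26.65 CPM of Tnr, above its levels. For Bcan they scaled to 44.5 and 20.85 CPM and for Vcan to 47.6 and 24.4, below the levels measured. The part of these marker levels in the ratios was not tested. Without doublet removal 8 members passed the limit, and Bcan had a ratio of 1.13 after thinning.

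Partners of the members were counted from 10 lists by the same rule. Over all astrocyte genes with that many UMIs, 7.69% were higher and 6.93% lower, and the counts below are to be read against those shares. In astrocytes, 5 of 13 matrix proteases with enough UMIs were higher and 3 lower. Among the higher was Ctss at 13.9 and 23.4 CPM, which stood at 5644 and 6415 CPM in microglia. The part of microglial RNA in its astrocyte levels was not tested. Adamts1, which cleaves lecticans, stood at 24.1 and 95.6 CPM, a ratio of 3.97 (3.35 to 4.75), and Adamts5, of the same family, at 3.98 and 10.2 (2.56, 1.66 to 4.11). The membrane protease Mmp14 stood at 60.4 and 22.4 CPM (0.371, 0.32 to 0.43). Of 7 protease inhibitors 2 were higher and 1 lower. For Timp1, which inhibits metalloproteinases, 2 UMIs were counted in WT and 294 in 60TM, and the CPM ratio was 55.4 (15.2 to 459.6).

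Of 13 matricellular genes in astrocytes 5 were higher and 4 lower. Ccn1 stood at 38.8 and 206 CPM (5.31, 4.65 to 6.09), Ccn2 at 0.498 and 22.8 from 3 and 365 UMIs (45.9, 15.6 to 223), and Vtn at 19.1 and 4.69 (0.246, 0.181 to 0.332). Cd44, the hyaluronan receptor, was the 1 of 6 hyaluronan and link genes that was higher, at 13.1 and 30.2 CPM (2.30, 1.81 to 2.96), while Hapln1, which links lecticans to hyaluronan, had a ratio of 0.899. None of 10 other proteoglycans and none of 4 basement membrane partners passed the limit. Of 12 genes of collagen making none was higher and 1 lower. Of 16 genes of the integrin adhesion machinery 3 were higher, among them Actn1 at 9.62 and 26.5 CPM and Flna at 16.6 and 35.4, and Parvb was lower. Of 9 TGF-beta genes 2 were higher and 1 lower, and the 1 integrin subunit outside the symbol rule did not pass.

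In radial glia-like cells Adamts1 stood at 31.1 and 105 CPM (3.36, 2.37 to 4.91), Ccn1 at 18.6 and 87.6 and Fbln5, an elastic fibre protein, at 16.9 and 125. Lower there were Parvb (0.518), Serpine2 (0.581) and Serpinh1 (0.645). In microglia Spp1, which encodes the integrin ligand osteopontin, stood at 45.4 and 7.21 CPM (0.159, 0.131 to 0.192), and Itgax at 9.37 and 5.27 (0.563, 0.428 to 0.739). Loxl3 (0.536) and Actn1 (0.639) were lower there as well. Higher in 60TM microglia were Sdc3 at 15.3 and 44.0 CPM (2.88, 2.46 to 3.37) and Agrn at 2.92 and 4.74 (1.62). Cspg5 at 5.32 and 8.56 CPM (1.61) and Ptprz1 at 5.55 and 8.72 (1.57) also passed the limit there. Astrocytes held 1889 and 1622 CPM of Cspg5 and 2067 and 1759 of Ptprz1. The part of free RNA in the microglial levels was not tested. Of all microglial genes with enough UMIs, 2.51% were higher and 2.17% lower. Endothelial Adamts1 stood at 184 and 51.3 CPM (0.279, 0.203 to 0.382) and Ccn2 at 39.7 and 152 (3.82, 2.54 to 5.95). In oligodendrocytes Itgad stood at 27.7 and 52.6 CPM (1.90, 1.71 to 2.11). Other list genes of endothelial cells and oligodendrocytes passed the limit in both directions.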

How the data were processed

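The deposited matrices hold raw UMI counts per gene and barcode with no normalization, as deposited by the authors. Per the submitters' processing notes they were made with Cell Ranger 5.0.0 on GRCm38; the annotation release and the use of intronic reads are not given in the sources used here. The other deposited tables give gene and barcode names. Barcodes with fewer than 500 genes or over 15% mitochondrial UMIs were removed, and Scrublet scores removed 377 WT and 610 60TM barcodes as doublets, 0.8% per 1000 barcodes. Both libraries were clustered together in scanpy 1.11.5 without integration: 2000 variable genes without the members, 30 components, 15 neighbours and Leiden resolution 1. Clusters were named from markers of 22 classes, with at least 3 markers at a log2 ratio of 1 or more and in at least 20% of cells. Clusters with markers of 2 classes were clustered again alone, which separated pericytes from fibroblast-like cells. This naming rule was set with the clusters seen.

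UMIs were summed per class and library and scaled to CPM. Ratios have exact conditional-binomial 95% intervals, sums Poisson intervals and shares Clopper-Pearson intervals, all for counting error only. Droplet UMIs of 1 pooled library per genotype allow no test and no replicate check. The level that another class's markers scale to is the member's CPM in that class times the share of its marker CPM found here. Named genes are the 9 brain matrix genes, members past 1.5-fold in a class, the highest members by family and class, and list genes past 1.5-fold; Itga1, Itgb1, Itgb8 and others short of the fold are given beside them as values. The members, lists and naming were chosen with earlier results of these data known. Interval coverage was tested on simulated data. Alternatives to filters, clustering, scaling, free RNA, depth and fold were computed. The coordinates of genes are from GENCODE M21 and promoter windows from RefSeq, both GRCm38.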

Additional observations from a re-analysis of the deposited data

Results flagged for a closer look

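Sparc and Col4a1 lay past 1.5-fold in opposite directions in different classes, and neither difference between classes was tested. Sparc had a ratio of 60TM over WT of 1.53 in astrocytes, 1.90 in oligodendrocytes, 1.68 in choroid plexus cells and 10.7 in dividing cells, and of 0.566 in border macrophages, where it turned to 1.21 by the highest marker score. No difference is read from the border macrophage value, because microglial markers there scaled to 1473 and 1341 CPM of Sparc, above its levels. In the dividing cells microglial markers stood at 81.9 CPM in WT and 1325 in 60TM. Col4a1 had a ratio of 0.639 in astrocytes and 1.53 in neurons, and the neuronal ratio was 1.08 by the highest marker score. Its partner chain Col4a2 stood at 40.65 CPM in WT and 36.8 in 60TM neurons.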

How the results depend on the processing

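No paired analysis was possible because each genotype has 1 pooled library. The source class count of 62 members ranged from 50 after thinning to 63 over the alternatives run. Of 375 recomputed values of the 39 member ratios, 325 were past 1.5-fold in either direction, and 9 turned direction. Values that turned and were past 1.5-fold are among the 325, such as Lama4 in endothelial cells and Vcan in neurons, given below. Under every alternative run 15 ratios stayed past it, among them Ncan and Col11a2 in astrocytes. The cause was not tested for the others. At a minimum of 20 UMIs, members past the fold numbered 27 of 46 in astrocytes (21.7% of all genes), 13 of 33 in oligodendrocytes (11.5%), 9 of 18 in dividing cells (16.2%), 8 of 22 in choroid plexus cells (26.0%), 6 of 27 in microglia (11.5%), 4 of 23 in OPCs (15.1%) and 3 of 21 in committed OPCs (12.9%). At a 2-fold limit they numbered 5 of 26 in astrocytes (4.84% of all genes), 2 of 11 in choroid plexus (2.73%), 2 of 10 in dividing (1.56%) and 2 of 13 in radial glia-like cells (1.73%), 1 of 16 in oligodendrocytes (1.09%) and 0 of 11 in OPCs (0.292%) and in endothelial cells (1.44%). After thinning to 2000 UMIs they numbered 4 of 16 in astrocytes (11.2%), 3 of 6 in oligodendrocytes (4.15%), 1 of 5 in radial glia-like cells (8.67%; higher, where 4 were lower), 0 of 7 in OPCs (3.22%), 0 of 1 in choroid plexus cells (7.08%) and 0 of 10 in microglia (4.39%); Itgb5 in border macrophages had a ratio of 1.015, Bcan in dividing cells 1.128, Lama4 in endothelial cells 0.549 and Lama2 in oligodendrocytes 1.048. With a limit of 5% on mitochondrial UMIs and a minimum of 200 genes, astrocytes had 5 of 21 (8.39%) and radial glia-like cells 2 of 13 (8.09%), the members' median log2 ratio in dividing cells was 0.36, and Bcan there had 1.097. Without clusters of 1 library astrocytes had 7 of 23 (7.16%), and Col5a3 had 0.959. With no doublets removed committed OPCs had 2 of 12 (4.28%) and dividing cells 8 of 11 (12.5%), and Sparc in border macrophages had 1.076; by the highest marker score committed OPCs had 2 of 12 (5.43%) and that ratio was 1.212. As a mean over cells committed OPCs had 2 of 11 (8.06%), endothelial cells 1 of 11 (15.3%), and Vcan in neurons had 1.629. At Leiden resolution 0.5 endothelial cells had 4 of 19 (7.88%). The mitochondrial limit left under 50 cells of choroid plexus and pericytes, and thinning left no dividing-cell member with 100 UMIs. Leaving mixed clusters unsplit, and adding the cells with pericyte and endothelial markers to pericytes, were chosen after seeing the data.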
